A study of Homo sapiens with 6 samples.

Results

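The YAP, TEAD and Hippo target genes described here are 10 genes chosen by name: the coactivators YAP1 and WWTR1, the DNA-binding factor TEAD1, the upstream regulators NF2 and LATS2, the junctional proteins AMOTL2 and AJUBA, and the target genes CCN1, CCN2 and ANKRD1. Each matched exactly 1 row of the 60892 rows in the deposited count table, and all 10 were among the 12994 genes with enough counts to test. RNA was sequenced from BEAS-2B, an immortalised human bronchial epithelial line labelled wild type and kept in serum-containing medium. The ZQ group was given Zhenqi Granules (ZQ), a herbal preparation, at 10 mg/mL for 24 hours, and the control group received medium for the same time. Both groups were then exposed to methicillin-resistant Staphylococcus aureus (MRSA) at 1 bacterium per cell and collected 2 hours later, with 3 libraries each. All libraries analysed here received bacteria, so the comparison is of ZQ with medium in infected cells of a single line.

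The Hippo pathway is a kinase cascade that restrains the growth-promoting coactivators YAP, encoded by YAP1, and TAZ, encoded by WWTR1. When the LATS kinases are active they phosphorylate both coactivators, which are then held in the cytoplasm or degraded. When the kinases are quiet the coactivators enter the nucleus and bind TEAD factors, which recognise the DNA sequence GGAATG. In airway epithelium the pathway is known for its part in basal cell growth, in the response to stretch and in repair after injury. Most of this control acts on the proteins, which RNA counts do not measure.

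ZQ libraries held 2064566 to 2451746 counts and control libraries 11665967 to 14699677, so ZQ depth was on average 5.95 times lower. Even so, 23836 to 24713 genes had a count in ZQ libraries and 19400 to 21141 in control libraries. Rises of genes with few control counts, among them some markers below, stand beside this difference, whose part in them was not tested. Mitochondrially encoded RNA made up 39.6% ± 1.15 of counts with ZQ and 8.74% ± 1.56 in control cells (SD, n = 3 each). The 6 epithelial markers summed to 1703 to 1939 CPM (counts scaled to the library total and adjusted by the TMM method) with ZQ and 1825 to 3286 CPM in control libraries, with KRT7 higher and KRT8 lower among the 5 tested. EPCAM and CDH1, both among the epithelial markers, averaged only 2.24 and 1.76 CPM with ZQ and 1.06 and 0.135 CPM in control cells. The 6 fibroblast markers, led by COL1A1 and THY1, summed to 177.7 to 227.1 CPM with ZQ and 552.3 to 998.6 CPM in control libraries, with 3 of the 5 tested lower and 0 higher. The 6 leukocyte markers summed to 4.79 to 14.4 CPM with ZQ and 4.198 to 6.33 CPM in control libraries, with LYZ at 0 counts throughout. CD14, the single leukocyte marker tested, was lower with ZQ, while ITGAM, not tested, held 35 counts with ZQ and 1 in control libraries. The 5 endothelial markers summed to 18.2 to 23.0 CPM with ZQ and 0.921 to 3.12 CPM in control libraries, with both tested members (PECAM1 and VWF) higher. The 5 markers of differentiated airway cells summed to 12.7 to 16.3 CPM with ZQ and 0.0575 to 0.271 CPM in control libraries, with MUC5B (75 counts with ZQ, 2 in control libraries) the 1 tested member and higher, and with MUC5AC and TP63 at 0 counts. These marker lists did not all move in the same direction, and their part in the results below was not tested. In bulk RNA, fewer cells of a type and less RNA per cell cannot be told apart. The labels do not say whether the 3 libraries of each group were separate cultures. The p-values therefore cover library-to-library spread, part or all of which may be technical.

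Promoters are shown for CCN2 and ANKRD1, the members that changed most, and for AMOTL2, a target that did not pass the test, because all 3 carry the letters that TEAD factors recognise. Sequences are from RefSeq (GRCh38.p14), 250 bases before the annotated transcript start, 5′ to 3′ on the strand of the gene, with GGAATG or its reverse complement CATTCC in capitals. The CCN2 window lies at chr6:131951373-131951622 on the minus strand, the ANKRD1 window at chr10:90921088-90921337 on the minus strand and that of the downstream of 2 AMOTL2 starts at chr3:134374448-134374697 on the minus strand.
CCN2: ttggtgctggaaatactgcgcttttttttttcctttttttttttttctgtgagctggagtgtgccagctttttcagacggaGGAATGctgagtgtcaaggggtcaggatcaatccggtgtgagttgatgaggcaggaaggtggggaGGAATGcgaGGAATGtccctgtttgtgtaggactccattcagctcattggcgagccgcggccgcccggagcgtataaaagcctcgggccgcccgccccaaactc
ANKRD1: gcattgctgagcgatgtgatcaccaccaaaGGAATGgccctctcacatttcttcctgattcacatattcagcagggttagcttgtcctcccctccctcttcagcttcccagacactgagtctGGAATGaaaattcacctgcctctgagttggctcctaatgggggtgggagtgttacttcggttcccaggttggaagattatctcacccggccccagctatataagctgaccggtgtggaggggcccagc
AMOTL2: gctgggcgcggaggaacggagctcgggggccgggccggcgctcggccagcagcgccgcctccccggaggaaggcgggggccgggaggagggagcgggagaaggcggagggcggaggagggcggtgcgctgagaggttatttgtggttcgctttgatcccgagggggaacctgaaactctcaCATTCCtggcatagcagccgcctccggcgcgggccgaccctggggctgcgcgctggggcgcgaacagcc
The CCN2 window held 3 GGAATG matches, which begin 169, 104 and 95 bases before the start. The ANKRD1 window held 2, at 220 and 128 bases before the start, and the AMOTL2 window 1, at 69 bases. In the GENCODE annotation ANKRD1 extends to 90921276, so part of its window, with the match at 128 bases, lies within the gene. The AMOTL2 window lies wholly within the GENCODE span of its gene. Of 12 windows for the 8 members with an entry (not TEAD1 and CCN1), 5 held a match, namely 1 window each of YAP1, AMOTL2, AJUBA, CCN2 and ANKRD1, and none was found in the windows of WWTR1, NF2 and LATS2. Over all 35116 RefSeq windows, 11.9% held at least 1 match on either strand, 0.940% at least 2 and 0.0826% at least 3. The AP-1 sequence TGANTCA (either strand, N for any base) was present in 6.57% of all windows and among the members in the ANKRD1 window alone, the TATA sequence TATAAA in 6.80% and in the CCN2 window alone, and the CArG box in 1.16% and in no member window. No GGAATG match overlapped a match to another motif. A match describes the letters and does not show binding.

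The members did not move as 1 group: with ZQ, the target gene CCN2 fell and the target gene ANKRD1 rose (log2 changes of -3.27 ± 0.29 and 2.99 ± 0.34, where ± on a log2 change is its SE throughout), and TEAD1 and NF2 fell by less. The other 6 members, YAP1, WWTR1, LATS2, AMOTL2, AJUBA and CCN1, did not pass the test. A gene was called where edgeR's quasi-likelihood test gave a p-value, adjusted over all 12994 tested genes, under 0.05. By that rule 1 of 10 members was higher and 3 of 10 were lower, where 19.3% of all tested genes were higher and 19.0% lower, or 38.3% in all. The ZQ and control libraries did not overlap in 5 of 10 members, 1 with ZQ higher and 4 with ZQ lower, where the shares over all tested genes were 53.5% in all, 25.4% with ZQ higher and 28.0% with ZQ lower. The 4 of 10 called and the 5 of 10 without overlap are thus near the background of this comparison. Without control replicate 1 or control replicate 3, 2794 and 3040 genes were called in all, against 4978 with all libraries.

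**Figure D1:**
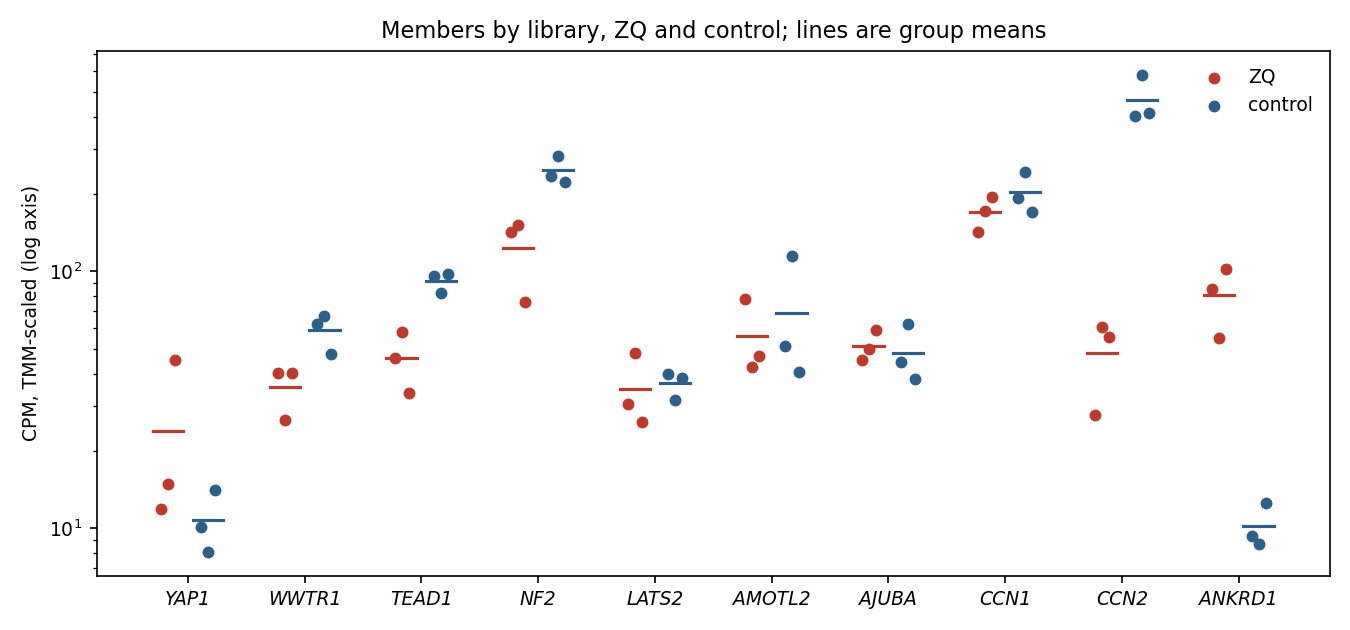
Level of each member in every library, as TMM-scaled CPM on a log axis, with the 3 ZQ libraries (red) left of the 3 control libraries (blue) and group means as lines. CCN2 averaged 48.1 CPM with ZQ and 466.8 CPM in control cells, ANKRD1 averaged 80.9 CPM with ZQ and 10.2 CPM in control cells, and the groups overlap in YAP1, LATS2, AMOTL2, AJUBA and CCN1.

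YAP1 (ENSG00000137693, chr11:102110461-102233423, plus strand, GRCh38), the coactivator for which the pathway is best known, had 11.9, 14.9 and 45.3 CPM in ZQ libraries 1 to 3, against 10.1, 8.11 and 14.1 CPM in control libraries. ZQ replicate 3 stood well above the other 5 libraries, holding 82 of the 135 ZQ counts, and the groups overlapped. The log2 change was 1.15 ± 0.56 (SE) with a 95% interval of -0.08 to 2.39 and did not pass (edgeR adjusted p = 0.13); without ZQ replicate 3 it was 0.23.
WWTR1 (ENSG00000018408, chr3:149517235-149736714, minus strand), which encodes TAZ, had 40.2, 26.3 and 40.3 CPM with ZQ, against 62.6, 67.1 and 47.9 CPM in control libraries. Every ZQ library was below every control library, but the log2 change of -0.73 ± 0.30 did not pass (95% interval -1.39 to -0.08, edgeR adjusted p = 0.074). It passed without a filter (-1.05), by library totals (-1.14) and without ZQ replicate 3 (-0.93).
TEAD1 (ENSG00000187079, chr11:12674591-12944483, plus strand), a DNA-binding partner of both coactivators, had 46.2, 58.0 and 33.7 CPM with ZQ, against 96.1, 82.2 and 97.9 CPM in control libraries. The groups did not overlap, with ZQ at about 0.499 of the control mean, and the log2 change of -1.0 ± 0.26 passed (edgeR adjusted p = 0.012). That call ended without control replicate 1 (-0.82) or control replicate 3 (-0.80), with upper-quartile scaling (-0.55) and with offsets for transcript GC content and length (-0.37).

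NF2 (ENSG00000186575, chr22:29603556-29698598, plus strand) encodes merlin, a membrane-associated protein that helps activate the LATS kinases. It had 142.3, 151.4 and 76.3 CPM in ZQ libraries, against 235.9, 282.6 and 223.5 CPM in control libraries. All 3 ZQ libraries were below the lowest control library, ZQ replicate 3 the furthest. The log2 change was -1.0 ± 0.25 (95% interval -1.55 to -0.45, edgeR adjusted p = 0.0093), or -1.61 with those offsets. The call ended without control replicate 2 (-0.79) and with upper-quartile scaling (-0.55).
LATS2 (ENSG00000150457, chr13:20973032-21061547, minus strand), a kinase that phosphorylates YAP and TAZ and is itself induced by them, had 30.4, 48.4 and 26.0 CPM with ZQ, against 39.9, 31.5 and 38.6 CPM in control libraries. The groups overlapped, ZQ replicate 2 was the highest of the 6 libraries, and the log2 change was -0.07 ± 0.34 with a 95% interval of -0.81 to 0.68 (edgeR adjusted p = 0.89).

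AMOTL2 (ENSG00000114019, chr3:134355874-134375479, minus strand), an angiomotin-family protein of cell junctions that binds YAP and is also a target gene, had 78.2, 42.6 and 47.0 CPM with ZQ, against 51.5, 114.6 and 40.8 CPM in control libraries. Control replicate 2 was above all others and the groups overlapped. The log2 change was -0.30 ± 0.41 (95% interval -1.21 to 0.60, edgeR adjusted p = 0.59) and was 0.38 without control replicate 2.
AJUBA (ENSG00000129474, chr14:22971174-22982642, minus strand), a LIM-domain protein of junctions that inhibits the LATS kinases, had 45.1, 49.8 and 59.1 CPM with ZQ, against 44.3, 62.7 and 38.0 CPM in control libraries. The ZQ values all lay within the range of the control values, and the log2 change was 0.09 ± 0.29 (95% interval -0.56 to 0.73, edgeR adjusted p = 0.83).

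CCN2 (ENSG00000118523, chr6:131948176-131951373, minus strand) encodes connective tissue growth factor, a secreted matrix-associated protein and the most widely used reporter of YAP activity. Its ZQ libraries held 27.7, 60.8 and 55.8 CPM, against 402.7, 583.4 and 414.2 CPM in control libraries. Every ZQ library was far below every control library, and the ZQ mean was 9.70 times lower. The log2 change of -3.27 ± 0.29 passed (95% interval -3.91 to -2.64, edgeR adjusted p = 3.4e-05), and it placed CCN2 at percentile 1.99 of the log2 changes of all tested genes.
ANKRD1 (ENSG00000148677, chr10:90912096-90921276, minus strand) encodes a nuclear and sarcomeric ankyrin-repeat protein that is a target of YAP in many cell types. It had 85.3, 55.1 and 102.2 CPM with ZQ, against 9.35, 8.69 and 12.5 CPM in control libraries. In raw counts the ZQ libraries held 157, 115 and 185, as many as the 138, 151 and 164 of the far deeper control libraries. The ZQ mean was 7.94 times higher, and the log2 change of 2.99 ± 0.34 passed (95% interval 2.22 to 3.75, edgeR adjusted p = 1.6e-04).
CCN1 (ENSG00000142871, chr1:85580761-85583962, plus strand) encodes CYR61, a matrix protein of the same family as CCN2 and another standard YAP target. It had 141.8, 171.5 and 195.6 CPM with ZQ, against 193.5, 244.7 and 170.7 CPM in control libraries. The groups overlapped, and the log2 change of -0.26 ± 0.19 did not pass (95% interval -0.69 to 0.17, edgeR adjusted p = 0.32). CCN1 passed without a filter (-0.57) and by library totals (-0.67), and stood at 0.19 with upper-quartile scaling without passing.
The calls for CCN2 and ANKRD1 held in all 15 alternative analyses, with log2 changes between -3.69 and -2.83 for CCN2 and between 2.59 and 3.86 for ANKRD1.

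**Figure D2:**
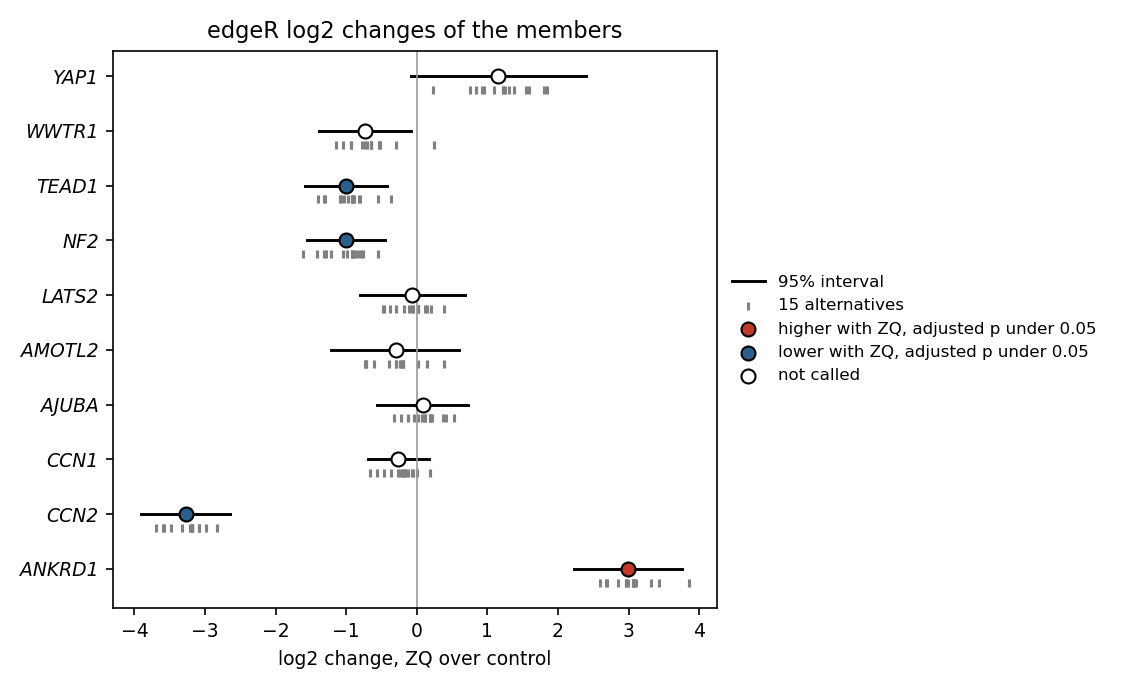
Log2 change of each member, ZQ over control, from edgeR, with its 95% interval (line) and the values of the 15 alternative analyses (grey ticks under each line). CCN2 at -3.27 and ANKRD1 at 2.99 lie furthest from 0, and the intervals of YAP1, LATS2, AMOTL2, AJUBA and CCN1 include 0.

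The direction of CCN2 against CCN1 can be read within each library, where no scaling enters. There were 5.12, 2.82 and 3.50 CCN1 counts for each CCN2 count in ZQ libraries, against 0.480, 0.419 and 0.412 in control libraries. CCN1 thus outnumbered CCN2 in every ZQ library and was outnumbered by it in every control library, both genes being of similar exon length. The mean log2 ratio was 1.89 ± 0.44 with ZQ and -1.20 ± 0.12 in control libraries (SD, n = 3 each), a difference of 3.08. The exact two-sided permutation p was 0.1, the smallest that 3 against 3 libraries can give, or 0.15 adjusted over the 3 ratios computed.
The ratio of YAP1 to WWTR1 counts was 0.297, 0.564 and 1.12 with ZQ, against 0.161, 0.121 and 0.295 in control libraries. The ratio was above 1 in ZQ replicate 3 alone, and the difference of mean log2 ratios was 1.68 (exact permutation p = 0.1, adjusted 0.15, n = 3 each). That difference was 1.19 when ZQ replicate 3 was left out and 1.35 with GC and length offsets (exact permutation p = 0.2 with the offsets, not adjusted).
LATS2 to YAP1 gave 2.55, 3.26 and 0.573 with ZQ, against 3.95, 3.89 and 2.74 in control libraries, so that the groups overlapped (difference -1.05, exact permutation p = 0.2, n = 3 each). The difference was -0.27 when ZQ replicate 3 was left out and -1.88 with GC and length offsets.

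Levels of different genes were compared as mean CPM per kb of annotated exon. With ZQ the order was CCN1 (69.1 ± 11.0), ANKRD1 (40.9 ± 12.1), CCN2 (20.6 ± 7.63), NF2 (17.2 ± 5.72), AMOTL2 (9.35 ± 3.25), AJUBA (8.59 ± 1.19), LATS2 (6.26 ± 2.13), TEAD1 (4.47 ± 1.18), WWTR1 (4.24 ± 0.956) and YAP1 (3.82 ± 2.94, SD, n = 3 for each). In control cells it was CCN2 (199.6 ± 43.3), CCN1 (82.7 ± 15.4), NF2 (34.5 ± 4.34), AMOTL2 (11.5 ± 6.66), TEAD1 (8.96 ± 0.833), AJUBA (8.08 ± 2.14), WWTR1 (7.04 ± 1.20), LATS2 (6.58 ± 0.808), ANKRD1 (5.15 ± 1.03) and YAP1 (1.71 ± 0.486, SD, n = 3 for each). Target genes headed both orders, CCN1 and ANKRD1 with ZQ and CCN2 and CCN1 in control cells, and YAP1 was last in both. Among ZQ levels, the ranges of mean ± SD overlapped for all neighbours from CCN2 down to YAP1. In control cells these ranges overlapped for the neighbours from AMOTL2 down to ANKRD1, while those of CCN2, CCN1, NF2 and YAP1 did not overlap with their neighbours' ranges.

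**Figure D3:**
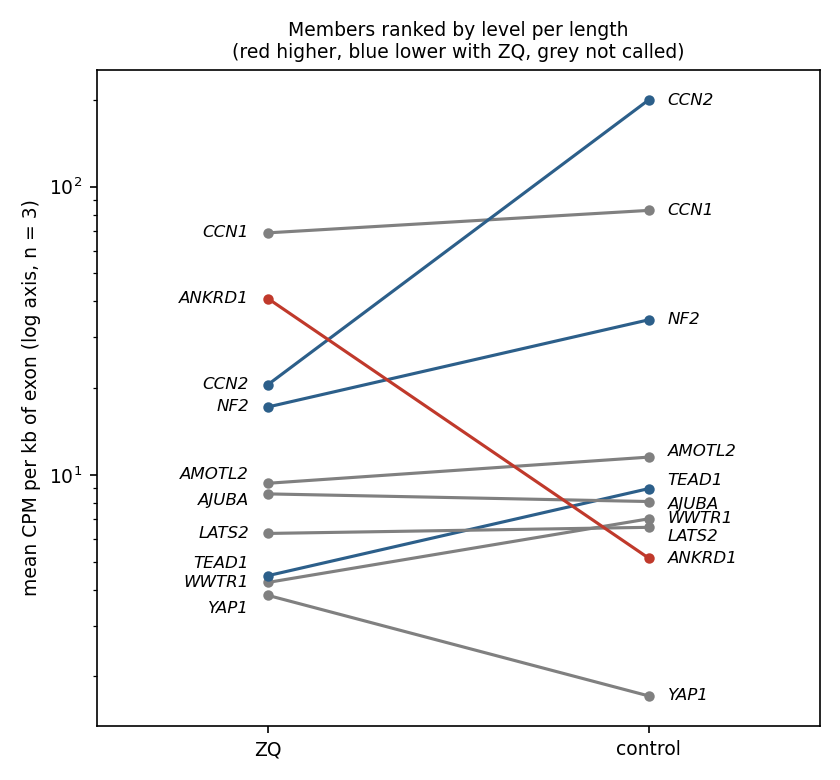
Mean level of each member per kb of exon (CPM per kb, log axis, n = 3) with ZQ at the left and in control cells at the right, joined by a line for each gene. The line of CCN2 (20.6 with ZQ, 199.6 in control cells) crosses that of CCN1, and the line of ANKRD1 (40.9 with ZQ, 5.15 in control cells) crosses all others but those of CCN1 and YAP1.

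Among the control libraries, replicate 2 was higher for 6 of the 10 members. Set against the mean of control replicates 1 and 3, AMOTL2 was higher there by 1.30 on the log2 scale, at percentile 96.9 of all tested genes. AJUBA, CCN2, CCN1, NF2 and WWTR1 were also higher there, by 0.60, 0.51, 0.43, 0.30 and 0.28 on the log2 scale, while YAP1, ANKRD1, LATS2 and TEAD1 stood at -0.55, -0.32, -0.31 and -0.24. The median over the 10 members was 0.29 and that over all tested genes 0.00. Among ZQ libraries, replicate 3 was also higher for 6 of the 10 members, with a median of 0.29, where that over all tested genes was -0.06. It was higher for YAP1 by 1.72 on the log2 scale (percentile 95.3) and stood at -0.94 for NF2 and -0.62 for TEAD1. The members therefore differed from each other in which library was high, and CCN2 and ANKRD1 were the members whose group difference exceeded every such deviation of any member.

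The rest of the pathway was read from 6 lists holding 64 genes with the members, of which 59 were tested (AMOT, FOXF2, CCN4, CCN5 and CCN6 were not). LATS2, AMOTL2, PTPN14, CCN1 and CCN2 stand in more than 1 list. Of these 59 genes, 6 were higher and 24 lower with ZQ, with a median log2 change of -0.63, where 19.3% of all tested genes were higher, 19.0% lower and the median was 0.03. Without control replicate 1 or control replicate 3, 13 and 15 of the pathway genes were lower. In those fits 1384 and 1481 of 11035 tested genes were lower, against 2472 of 12994 with all libraries.

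The YAP/TAZ target signature, 22 genes found to follow both coactivators across cancers, had 2 of 21 tested genes higher and 9 lower (median -0.68). That median was -0.23 with upper-quartile scaling, -0.42 with thinned controls, -1.08 by library totals, -1.14 without ZQ replicate 2 and -1.03 without ZQ replicate 3. The median of all tested genes was 0.48 with upper-quartile scaling and -0.37 by library totals, against 0.03 in the main fit. TGFB2, a secreted growth factor, averaged 3.63 ± 0.592 CPM with ZQ and 66.7 ± 13.2 CPM in control cells (SD, n = 3 each), and fell with a log2 change of -4.19 ± 0.38. IGFBP3, which binds insulin-like growth factors, and CRIM1, a membrane protein that binds bone morphogenetic proteins, fell with log2 changes of -2.25 ± 0.23 and -2.05 ± 0.24. MYOF, which encodes the membrane-repair protein myoferlin, and AXL, a receptor tyrosine kinase, fell with log2 changes of -1.81 ± 0.21 and -1.72 ± 0.17. AXL had 452.3 ± 34.5 CPM with ZQ and 1487 ± 359 CPM in control cells (SD, n = 3 each). GADD45A, a stress and DNA-damage response gene, was the other gene besides ANKRD1 to rise, with a log2 change of 1.98 ± 0.23 (adjusted p = 1.5e-04 in edgeR, as against 4.2e-05 to 1.8e-04 for the 5 that fell). All 9 genes called lower were also called lower with the GC and length offsets, which gave 11 lower and 2 higher and a median of -1.14. In that fit 1765 of 12994 tested genes were lower and 2635 higher. FOXF2, a forkhead factor, held 14 counts with ZQ and 0 in control libraries and was not tested.

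Hippo kinases and their upstream regulators had 1 of 20 genes higher and 9 lower (median -0.69). FRMD6, a membrane scaffold of the pathway, fell with a log2 change of -2.17 ± 0.23, and WWC2, a relative of the scaffold KIBRA, with one of -1.39 ± 0.32. The kinase genes STK3 (MST2), LATS1 and TAOK3 fell with log2 changes of -1.68 ± 0.36, -1.69 ± 0.41 and -1.30 ± 0.28, and MOB1A, the LATS cofactor, with one of -1.38 ± 0.21 (edgeR adjusted p between 9.0e-05 and 0.0087 for these 6). MAP4K2, a kinase that can act on LATS, was the single gene called higher, at 1.83 ± 0.65 (edgeR adjusted p = 0.048), and was singled out after its value was seen. Without control replicate 1 the list had 4 lower and 0 higher, where 1384 of 11035 tested genes were lower and 1410 higher. These genes are low in GC, with a list median of 43.2%. With the GC and length offsets the list had 4 genes lower and 2 higher, where 1765 of 12994 tested genes were lower and 2635 higher. Of the 9 genes lower in the main fit, 3 (NF2, WWC2 and FRMD6) were still called lower with the offsets, FRMD6 at -1.04. The list median was then 0.01, with MOB1A at -0.05, STK3 at -0.39, TAOK3 at -0.66 and LATS1 at -0.82. Calls were also lost without control replicate 1 for TAOK3, WWC2 and LATS1, without control replicate 2 for LATS1 and without control replicate 3 for WWC2.

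Of the 6 coactivator and TEAD genes, 2 were higher and 1 lower (median 0.59, or 0.14 without ZQ replicate 3). The median was -0.13 with controls thinned to the ZQ depth, a setting in which TEAD3 and TEAD2 were not among the tested genes. TEAD3 and TEAD2, paralogs of TEAD1, rose by 2.72 ± 0.66 and 2.01 ± 0.70 on the log2 scale (edgeR adjusted p = 0.0089 and 0.045), both at low levels: TEAD3 averaged 13.5 ± 8.40 CPM with ZQ and 2.05 ± 0.343 CPM in control cells, and TEAD2 5.79 ± 3.81 CPM with ZQ and 1.43 ± 0.308 CPM in control cells (SD, n = 3 each). The TEAD2 call was lost in 9 of 14 alternatives. TEAD4, a further paralog, had 41.7 ± 8.40 CPM with ZQ and 40.7 ± 13.6 CPM in control cells (SD, n = 3 each) and a log2 change of 0.04 ± 0.33, which did not pass.

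The list of junctional binding partners and brakes of the coactivators had 1 of 7 tested genes higher and 1 lower. Its median was -0.28, which was above 0 with upper-quartile scaling, with limma-voom and without control replicate 2. WTIP, a relative of AJUBA, rose by 2.15 ± 0.60 on the log2 scale, at 3.93 ZQ counts per kb, and VGLL4, which competes with YAP for TEAD, fell with a log2 change of -1.92 ± 0.59 (adjusted p = 0.018 and 0.026 in edgeR). WTIP no longer passed with the GC and length offsets (0.90) or without control replicate 2 or 3. VGLL4 no longer passed with upper-quartile scaling (-1.46), in limma-voom (-1.61) or without control replicate 1 or 2. LIMD1, PTPN14 and AMOTL1 stood at 1.69, -0.50 and -0.28 without passing, though PTPN14 passed without a filter (-0.81) and without ZQ replicate 3 (-1.03). LIMD1 passed with upper-quartile scaling (2.13), in DESeq2 (1.79) and without ZQ replicate 1 (2.07). The STRIPAK phosphatase complex, which removes activating phosphates from the MST kinases, had 3 of 7 lower and 0 higher (median -0.35, or 0.33 with the offsets and 0.09 with upper-quartile scaling). STRN3 and MOB4 fell with log2 changes of -1.62 ± 0.40 and -1.11 ± 0.32, and with the offsets neither was still called lower. Without control replicate 3, 0 of the 7 passed. STRN4, STRN and SIKE1 stood at 1.06, 0.85 and -0.31 without passing. With the offsets STRN passed at 1.85 and SIKE1 at 0.99, STRN4 passed at 1.52 with upper-quartile scaling, and SIKE1 passed at -0.71 by library totals. Of the CCN family, 3 of 6 were tested, and CCN3 fell beside CCN2, with 50, 18 and 0 counts in ZQ libraries, against 971, 919 and 919 in control libraries (log2 change -2.40 ± 0.81, edgeR adjusted p = 0.038), a call lost in 8 of 15 alternatives.

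**Figure D4:**
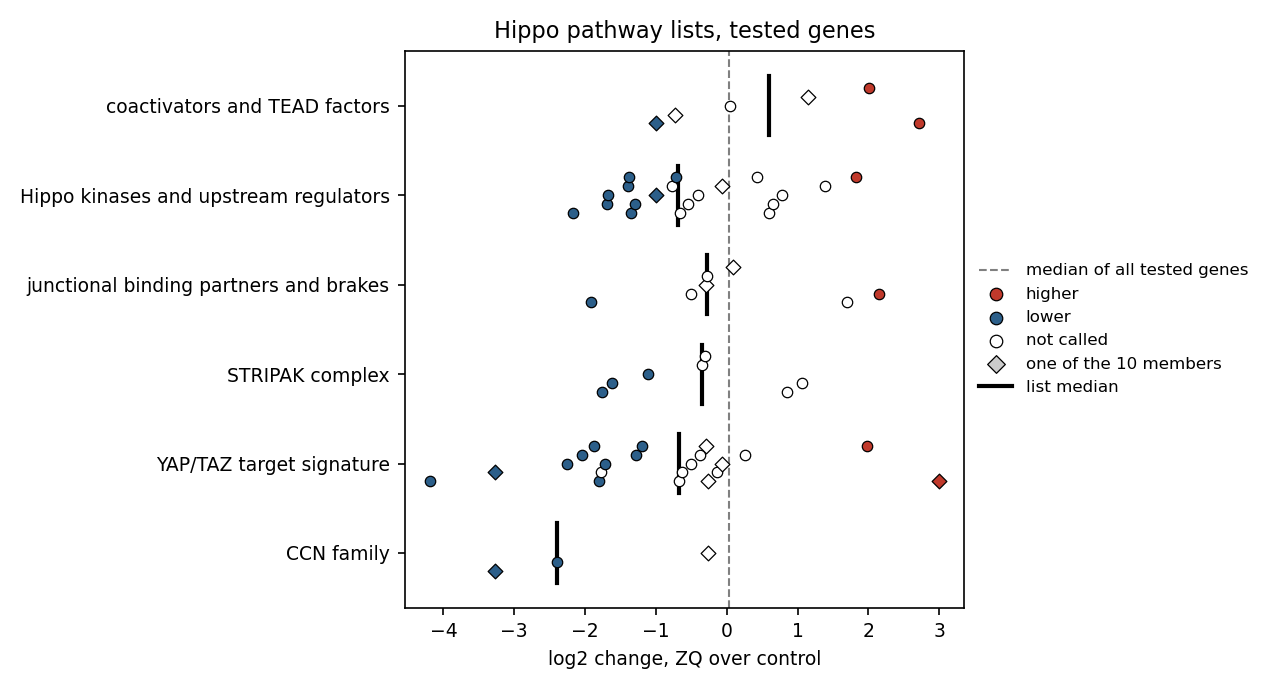
Log2 change, ZQ over control, of every tested gene in the 6 pathway lists (rows), with calls in red (higher) and blue (lower), the 10 members as diamonds, list medians as black bars and the median of all tested genes (0.03) as a dashed line. The target signature and the kinase list have medians of -0.68 and -0.69, and the coactivator and TEAD list has a median of 0.59.

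Across the 11514 tested protein-coding genes, log2 changes followed the GC content of the transcript, with a Spearman rho of 0.495, a description in which genes are not independent. WWTR1, TEAD1, ANKRD1 and YAP1 lay below the median GC content of 47.8%, at 40.9%, 41.3%, 43.3% and 43.5%, and the other 6 members above it, at 50.3% for CCN1 to 56.7% for AMOTL2. With offsets for GC content and transcript length in each library, ANKRD1 stood at 3.86, CCN2 at -3.18 and NF2 at -1.61, all called. TEAD1 stood at -0.37 and WWTR1 at 0.24, neither called, and YAP1 at 1.80, called with an edgeR adjusted p of 0.029. In the main fit, of the members below the median GC content, ANKRD1 was called higher and TEAD1 lower, and YAP1 and WWTR1 were not called. Of those above it, NF2 and CCN2 were called lower, and CCN1, LATS2, AMOTL2 and AJUBA were not called. The part of GC content in these values was not tested. Scaling moved all genes together: the median log2 change of all tested genes was 0.03 with TMM, 0.48 with upper-quartile scaling and -0.37 by library totals. CCN2 and ANKRD1 lay far outside that shift, whereas CCN1, LATS2, AMOTL2 and AJUBA changed sign within it or within the other alternatives.

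**Figure D5:**
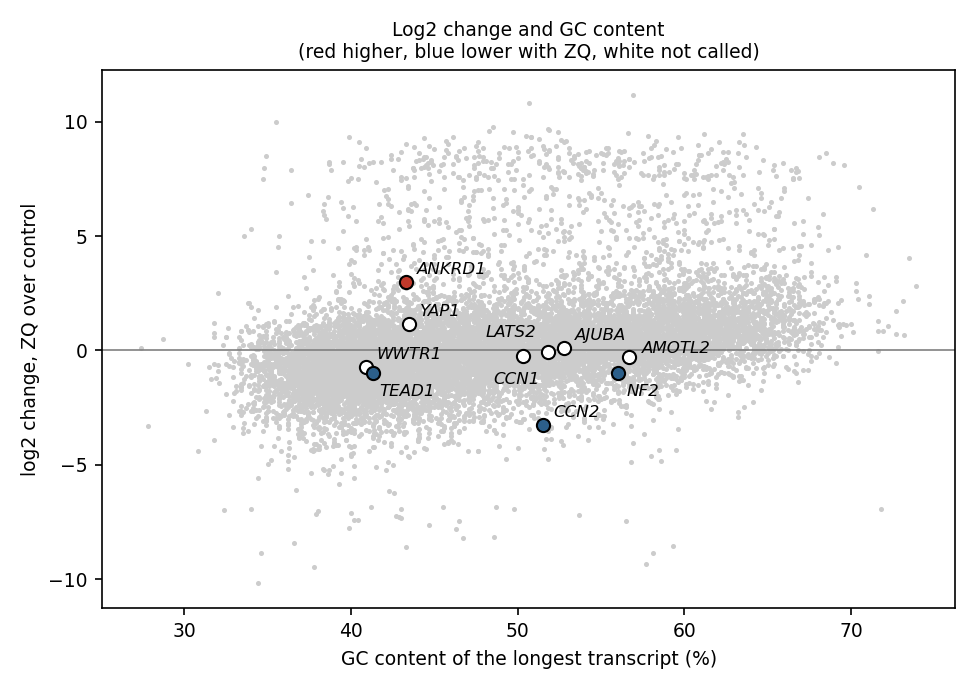
Log2 change, ZQ over control, against GC content of the longest transcript (percent) for all tested genes with a GC value (grey) and the 10 members (red higher, blue lower, white not called). ANKRD1 (43.3% GC, 2.99) lies above, and CCN2 (51.5% GC, -3.27) below, most genes of similar GC content.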

How the data were processed

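RNA-seq of 6 BEAS-2B libraries (3 ZQ, 3 control) was analysed from the table of read counts per gene that the authors deposited, not normalised. GRCh38 and Cufflinks 2.1.1 are named, without a role, per the submitters' processing notes. Aligner, counter and strandedness were not given in the sources used here, and reads from overlapping antisense genes cannot be told apart. Genes overlapping the members held at most 11 counts over the libraries of a group.

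Counts were tested with edgeR 4.0.16 in R 4.3.3 (filterByExpr, minimum count 10 and total 15; TMM; quasi-likelihood F-test, ZQ over control; Benjamini-Hochberg adjustment over 12994 genes; threshold 0.05). Standard errors are the log2 change divided by the square root of F. A count of 3 equals 1.44 to 1.66 CPM in ZQ libraries and 0.173 to 0.229 CPM in control libraries. Alternatives used DESeq2 1.42.0, limma 3.58.1, other scalings and filters, control libraries thinned to the ZQ depth, offsets from curves fitted with mgcv 1.9.3, each library left out, and a replicate block. The fit and the offsets were tested on simulated data. Libraries of a group differed by more than sampling noise (chi-square per degree of freedom 9.46 to 58.2). Lengths, positions and GC content came from GENCODE release 29. Lists were described by counts and medians only. Named genes are the 10 members and, in each list, up to 6 others with the smallest adjusted p, of which 1 is not reported here. Members and lists were chosen with earlier results of these data known.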

Additional observations from a re-analysis of the deposited data

How the results depend on the processing

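In edgeR, 4978 genes passed, 11603 without a low-count filter and 2794 to 5407 with 1 library left out. Without the filter, 7957 of 38214 genes were higher and 3646 lower, with a median log2 change of 1.75. Of the members 1 was higher, or 2 with upper-quartile scaling, with thinned controls and with the GC and length offsets (YAP1 added). Lower members numbered 3, or 5 without a filter and by library totals (WWTR1 and CCN1 added), and 1 with upper-quartile scaling. Over all 12994 tested genes, 2472 were lower, or 3580 by library totals and 1611 with upper-quartile scaling. Higher genes numbered 2506, or 3767 with upper-quartile scaling, 2635 with the offsets and 1674 of 9880 with thinned controls. Over the pathway lists 6 genes were higher, or 12 with upper-quartile scaling and 10 in DESeq2. Lower pathway genes numbered 24, or 15 with upper-quartile scaling and 13 to 28 with 1 library left out (13 without control replicate 1, 15 without control replicate 3). Without those control replicates, 1384 and 1481 of 11035 tested genes were lower, and in DESeq2 3089 of 12994 were higher. The median log2 change of the pathway genes, -0.63 in the main fit, was -0.77 without a filter, -0.18 with upper-quartile scaling and -1.03 by library totals. It was -0.42 with thinned controls, -0.14 with the offsets and -0.72 to -0.43 with 1 library left out. Over all tested genes the median moved the same way with scaling, from 0.03 to 0.48 with upper-quartile scaling and to -0.37 by library totals. With the offsets the median of all tested genes was 0.15. The cause was not tested.

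Log2 changes that took the other sign were, with the offsets, 0.24 for WWTR1, -0.04 for AJUBA, -0.80 for TEAD4, 0.33 for MOB4, -0.03 for STRN4 and 0.99 for SIKE1, and, with upper-quartile scaling, 0.38 for LATS2, 0.15 for AMOTL2, 0.19 for CCN1, 0.17 for AMOTL1 and 0.14 for SIKE1. LATS2 stood at 0.01 with RLE scaling and in DESeq2 and at 0.20 with thinned controls, and AMOTL2 at 0.02 in limma-voom. AJUBA stood at -0.22 without a filter and -0.32 by library totals, and TEAD4 at -0.27 and -0.37. Leaving out 1 library gave -0.48 to 0.14 for LATS2, -0.72 to 0.38 for AMOTL2, -0.12 to 0.42 for AJUBA, -0.23 to 0.44 for TEAD4 and -0.89 to 0.02 for AMOTL1.

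With the replicate block 4405 genes passed, 4219 of them shared with the fit without it, and no member call changed, with CCN2 at -3.32 and ANKRD1 at 2.96. Of the pathway genes 3 calls changed, the higher calls of TEAD2 and MAP4K2 and 1 lower call of the kinase list being lost. Same-numbered libraries deviated together only weakly (r = 0.00944, 0.0371 and 0.0316), although each correlated best with its own number, a hint from the data and not from the design. ZQ depth limits single genes: YAP1 rests on 22 to 82 ZQ counts per library.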

Other observations

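Reads per length give a view of how much RNA stood behind each member with ZQ. Summed over the 3 ZQ libraries, CCN1, ANKRD1, CCN2 and NF2 held 396, 231, 119 and 99.9 counts per kb of exon, and YAP1, WWTR1 and TEAD1 held 21.4, 24.0 and 26.0. Olfactory receptor genes, used here as genes with little or no airway role, held 1.50 counts per kb over 381 genes pooled, with a 99th percentile of 16.0. All 10 members lay above that percentile. Among pathway genes called higher, GADD45A (442) and TEAD3 (25.9) lay above it, and TEAD2 (11.4), MAP4K2 (7.32) and WTIP (3.93) below it. Of tested genes with a length, 49.2% of those called higher, 43.0% of those called lower and 50.2% of all lay at or below it.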
